A study of Mus musculus with 9 samples.

Results

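The aryl hydrocarbon receptor (AHR) pathway was described here through 7 genes, the receptor gene Ahr, its partner Arnt, the repressors Ahrr and Tiparp, and the CYP1 enzymes Cyp1a1, Cyp1a2 and Cyp1b1. They were chosen by gene symbol among the 61473 features of the deposited liver table, and each symbol stood on 1 feature: ENSMUSG00000019256 for Ahr, ENSMUSG00000015522 for Arnt, ENSMUSG00000021575 for Ahrr, ENSMUSG00000034640 for Tiparp, ENSMUSG00000032315 for Cyp1a1, ENSMUSG00000032310 for Cyp1a2 and ENSMUSG00000024087 for Cyp1b1. RNA was sequenced from 9 liver samples of NSG mice, an immunodeficient strain that lacks mature lymphocytes and keeps its macrophages and neutrophils. The labels give the genotype as WT for all samples. Tail vein injections went on for 5 weeks in every group. The injections held phosphate-buffered saline (PBS) for 3 samples and extracellular vesicles (EVs, small membrane particles shed by cells) for 6. Vesicles came from MCF-10A, human breast epithelial cells that do not form tumours, in 3 samples, and from MDA-MB-231, cells of a human triple-negative breast tumour, in the other 3. The age and sex of the mice, the EV dose and whether each sample was 1 mouse are not given in the sources used here. By its title, the study asks about cholesterol and a microRNA that cancer cells secrete, and it does not name the AHR pathway.

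AHR is a transcription factor that waits in the cytosol, bound to HSP90 chaperones, until a ligand such as a dioxin, a plant indole or a tryptophan product enters the cell. It then moves to the nucleus, pairs with ARNT and binds xenobiotic response elements, whose core is GCGTG, near its target genes. Among the targets are the CYP1 monooxygenases, which oxidise the ligands, and Ahrr and Tiparp, whose proteins damp the receptor. In liver Cyp1a2 is made at a high level by pericentral hepatocytes without an added ligand, while Cyp1a1 is low until the receptor is activated.

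Cyp1a1 and Cyp1a2 lie head to head on mouse chromosome 9, and 13958 bases part the start sites used here (RefSeq, GRCm38.p6). The RefSeq span of the Cyp1a1 gene begins at 57687928, upstream of the start site used here. Promoter windows of 250 bases that end just before the start site were found in RefSeq for 6 of the 7 genes, all but Ahr; the submitters' processing notes name GRCm39, so these coordinates belong to RefSeq only. The windows of both CYP1A genes are shown because these neighbours had very unlike RNA levels in every library, and that of Ahrr because it holds the most copies of the core. Each reads 5′ to 3′ on the strand of the gene, with GCGTG, or CACGC for the other strand, in capitals.
Cyp1a1: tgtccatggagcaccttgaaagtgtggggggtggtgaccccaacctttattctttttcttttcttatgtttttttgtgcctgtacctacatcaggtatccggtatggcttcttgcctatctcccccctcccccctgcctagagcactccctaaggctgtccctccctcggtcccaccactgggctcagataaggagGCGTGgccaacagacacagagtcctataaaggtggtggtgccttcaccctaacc
Cyp1a2: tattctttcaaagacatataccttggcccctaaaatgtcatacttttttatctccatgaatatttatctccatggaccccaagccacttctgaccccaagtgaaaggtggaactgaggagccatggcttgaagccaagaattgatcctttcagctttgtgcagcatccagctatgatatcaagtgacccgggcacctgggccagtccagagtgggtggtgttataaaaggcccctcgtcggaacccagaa
Ahrr: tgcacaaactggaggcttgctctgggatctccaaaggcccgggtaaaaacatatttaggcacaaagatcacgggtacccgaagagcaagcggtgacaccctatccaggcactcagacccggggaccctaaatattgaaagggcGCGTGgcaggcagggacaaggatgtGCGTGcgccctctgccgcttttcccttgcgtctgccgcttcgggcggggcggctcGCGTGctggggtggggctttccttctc
The Cyp1a1 window is chr9:57697363-57697612 on the plus strand, that of Cyp1a2 is chr9:57683656-57683905 on the minus strand, and that of Ahrr is chr13:74292332-74292581 on the minus strand. The core stood 54 to 50 bases before the start of Cyp1a1. It stood at 3 places before Ahrr, the nearest 27 to 23 bases from the start. The letters are not in the Cyp1a2 window, and there was 1 match each for Arnt, Tiparp and Cyp1b1. So 5 of 6 windows held the core on either strand, as did 28.2% of 32851 RefSeq windows of the same length; 3 or more copies stood in 2.77% of them. These counts describe letters in a short window only.

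All values are TPM, transcript abundances divided by transcript length and scaled to a fixed total, so levels of different genes can be set side by side. TPM keep no read depth, and the depth of each library is therefore unknown. Between 17403 and 20070 Ensembl features were above 0 per library. The MCF-10A EV libraries list every locus assembled from the reads at 0 and sum to between 934986 and 979351 TPM, where each of the other 6 sums to 1000000 within 0.5. The labels do not say whether that group was quantified apart from the others. Mitochondrially encoded genes took 26.3% of TPM in PBS 1 and between 4.96% and 12.1% in the other 8. MCF-10A EV 1 stood apart within its group. The neutrophil alarmin gene S100a8 was at 1517 TPM there and at 9.64 and 76.8 TPM in the other 2. Kupffer cell genes went both ways there. The lectin gene Clec4f was at 0.61 against 96.5 and 110 TPM, and Marco at 803.8 against 33.85 and 57.64 TPM. Hepatocyte genes were present at a high level throughout, with the 10 hepatocyte markers summing to between 70500 and 189000 TPM, which matches the liver label.

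The 7 genes covered a wide range of levels, in nearly the same order in every library. By the mean over the 9 libraries the order was Cyp1a2 at 371 TPM, Ahr at 10.1, Arnt at 4.63, Tiparp at 2.45, Cyp1a1 at 0.322, Cyp1b1 at 0.207 and Ahrr at 0.0856 TPM. Cyp1a2 stood above Ahr, Ahr above Arnt, Arnt above Tiparp and Tiparp above Cyp1a1 in 9 of 9 libraries. The ranges over all libraries still met for Ahr (3.44 to 17.6 TPM) and Arnt (1.98 to 13.3 TPM), and for Arnt and Tiparp (0.92 to 5.26 TPM). Cyp1a1 was above Cyp1b1 in 6 of 9 libraries and Cyp1b1 above Ahrr in 7 of 9, so the order of the lowest genes is not settled. Cyp1a1, Cyp1b1 and Ahrr stayed below 1 TPM in each of the 9 libraries.

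**Figure D1:**
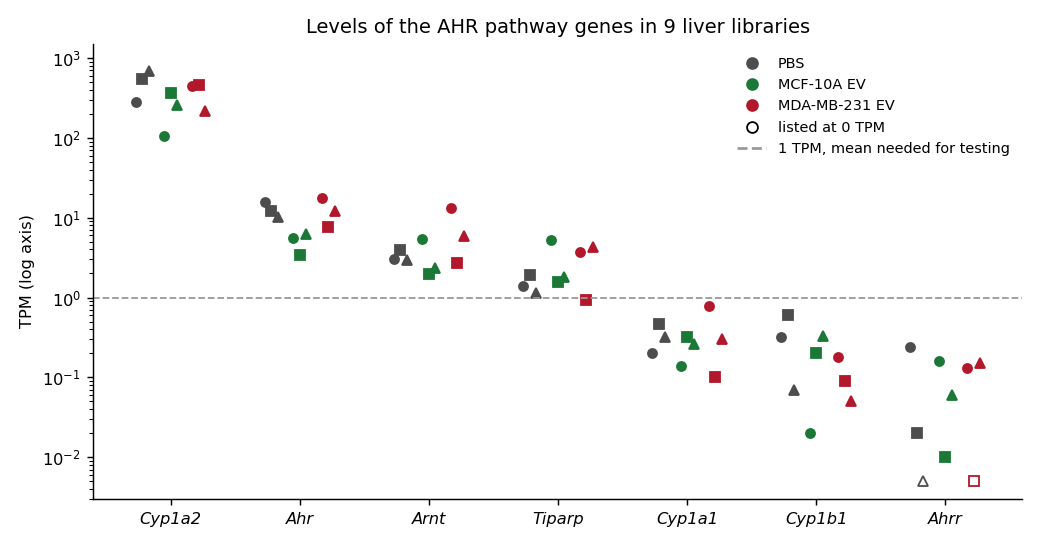
TPM of each of the 7 genes (log axis) in 9 liver libraries, 1 point per library, coloured by group; circles, squares and triangles are libraries 1, 2 and 3 of a group, and open points are libraries listed at 0. Cyp1a2 lies between 105 and 685 TPM, while Cyp1a1, Cyp1b1 and Ahrr lie under the dashed line at 1 TPM.

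Ahr, the receptor, was at 15.6, 12.3 and 10.2 TPM in PBS 1 to 3. It was at 5.59, 3.44 and 6.29 TPM in the MCF-10A EV libraries and at 17.6, 7.65 and 12.1 TPM in the MDA-MB-231 EV libraries. Each MCF-10A EV library was below every library of both other groups, and the PBS and MDA-MB-231 EV values overlapped. The group means were 12.7 ± 2.75 TPM (SD, n = 3) after PBS, 5.11 ± 1.49 after MCF-10A EVs and 12.4 ± 4.98 after MDA-MB-231 EVs.

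The difference in Ahr did not pass the test over all genes. In MCF-10A EV against PBS the log2 change was -1.18 ± 0.40 (SE; 95% interval -2.07 to -0.28; on the scale of log2(TPM + 1), which understates the change of low genes), with an unadjusted limma p of 0.0148 and an adjusted p of 0.893. For MDA-MB-231 EV over MCF-10A EV it was 1.10 ± 0.40 (0.21 to 2.0), with an unadjusted limma p of 0.0207 and an adjusted p of 1. Both comparisons use the same MCF-10A EV libraries and are not independent. These libraries are also those with every assembled locus at 0 and lower TPM sums over all features. Over Ensembl genes alone the sums overlapped, with 934986 to 979351 TPM after MCF-10A EVs. They were 969849 to 981782 TPM after PBS and 943034.5 to 987881 TPM after MDA-MB-231 EVs. With Ensembl TPM rescaled to a common sum, Ahr gave -1.15 in MCF-10A EV against PBS and 1.08 in MDA-MB-231 EV over MCF-10A EV. For Ahr, MDA-MB-231 EV against PBS gave -0.08 ± 0.40 (-0.97 to 0.82, limma adjusted p = 1). Without the library MCF-10A EV 1, with its neutrophil genes, the first log2 change was -1.25 and the second 1.17. Over fits that dropped 1 library, the first ran from -1.32 (no MCF-10A EV 3) to -0.96 (no MCF-10A EV 2). The second was lowest at 0.83 (no MDA-MB-231 EV 1) and highest at 1.38 (no MDA-MB-231 EV 2). The unadjusted limma p was 0.0685 for -0.96 and 0.073 for 0.83. It was also above 0.05 for the first without PBS 1 (-1.03, 0.0511) and the second without MCF-10A EV 2 (0.89, 0.0898). It stayed under 0.05 in the other fits that dropped 1 library.

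Groups that do not overlap were not rare among the 12860 genes tested. In MCF-10A EV against PBS all 3 libraries lay lower for 4.74% of genes, and Ahr was the 1 of 4 tested members among them. In MDA-MB-231 EV over MCF-10A EV all 3 lay higher for 4.73%, again with Ahr as the 1 member. No member was separated in MDA-MB-231 EV against PBS, where 5.23% of genes lay higher and 0.801% lower, nor in the remaining directions, which held 1.80% of genes (MDA-MB-231 EV below MCF-10A EV) and 2.95% (MCF-10A EV above PBS). With 3 against 3, an exact two-sided permutation test cannot go below 0.1, which is the p it gave for Ahr in each comparison with the MCF-10A EV group.

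**Figure D2:**
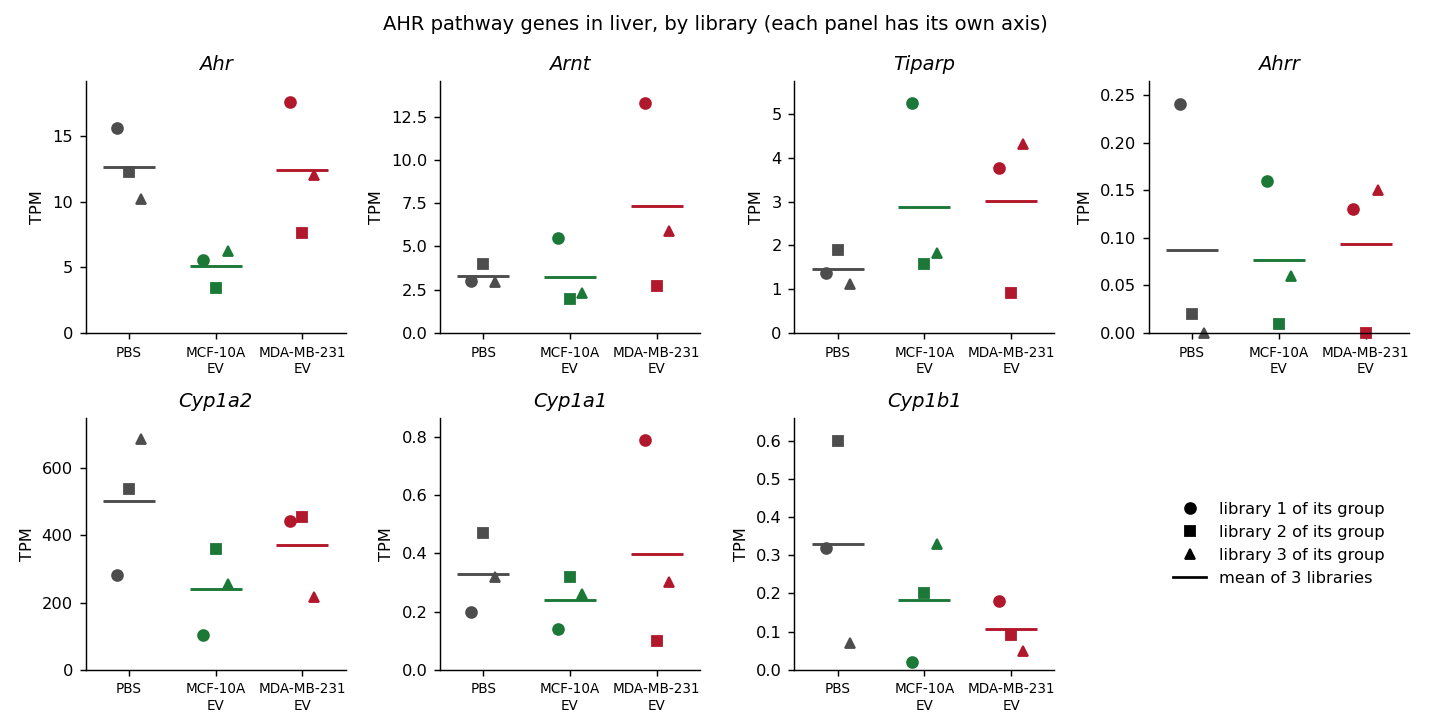
TPM of the 7 genes in each library, 1 panel per gene with its own axis from 0; points are libraries, shaped by their number within the group, and bars are means of 3. For Ahr the 3 MCF-10A EV points, 3.44 to 6.29 TPM, lie below all others, while the groups of every other gene overlap.

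Arnt, which pairs with AHR and also with the hypoxia-inducible factors, was at 3.01, 3.99 and 2.97 TPM in PBS 1 to 3. It was at 5.47, 1.98 and 2.32 TPM after MCF-10A EVs and at 13.3, 2.74 and 5.92 TPM after MDA-MB-231 EVs. The level in MDA-MB-231 EV 1 was the highest of all, and the 3 groups overlapped. The log2 changes were 0.74 ± 0.52 for MDA-MB-231 EV over PBS, 0.84 ± 0.52 for MDA-MB-231 EV over MCF-10A EV and -0.10 ± 0.52 for MCF-10A EV over PBS (limma adjusted p = 1 for each). With MDA-MB-231 EV 1 left out the change against PBS was 0.24 and that against MCF-10A EV was 0.35. With MDA-MB-231 EV 2 left out they were 1.21 and 1.31.

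The ratio of Ahr to Arnt was taken within each library as a description. It ran from 3.08 to 5.20 after PBS, from 1.02 to 2.71 after MCF-10A EVs and from 1.32 to 2.79 after MDA-MB-231 EVs. Every PBS library thus had more Ahr per Arnt than every EV library, with 3.08 and 2.79 the nearest values. How often the ratios of other gene pairs separate in this way was not counted. The mean of Ahr was 0.402 times that of PBS after MCF-10A EVs, whereas after MDA-MB-231 EVs the mean of Arnt was 2.2 times that of PBS. No member difference behind these ratios passed the test.

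Tiparp, a mono-ADP-ribosyltransferase that AHR induces and that acts back on the receptor, was at 1.38, 1.90 and 1.13 TPM in PBS 1 to 3. It was at 5.26, 1.58 and 1.82 TPM after MCF-10A EVs and at 3.77, 0.92 and 4.32 TPM after MDA-MB-231 EVs. The 3 highest levels came from MDA-MB-231 EV 3, MCF-10A EV 1 and MDA-MB-231 EV 1, and the lowest from MDA-MB-231 EV 2. The log2 changes were 0.58 ± 0.52 in MDA-MB-231 EV against PBS, 0.54 ± 0.52 in MCF-10A EV against PBS and 0.03 ± 0.52 between the EV groups (limma adjusted p = 1 for each). The 0.58 became 1.04 with MDA-MB-231 EV 2 left out and 0.30 with MDA-MB-231 EV 3 left out. The 0.54 became 0.14 with MCF-10A EV 1 left out.

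Ahrr, the repressor that competes with AHR for ARNT, was near 0 everywhere. It was at 0.24, 0.02 and 0 TPM in PBS 1 to 3, at 0.16, 0.01 and 0.06 TPM after MCF-10A EVs and at 0.13, 0 and 0.15 TPM after MDA-MB-231 EVs. It stood above 0 in 7 of 9 libraries and at no more than 2.86% of the Ahr level in any of them. Its mean was below the 1 TPM needed for the fit over all genes. The exact permutation p was between 0.9 and 1.0 in the 3 comparisons.

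Cyp1a2, the constitutive CYP1 enzyme of hepatocytes, was at 282, 539 and 685 TPM in PBS 1 to 3. It was at 105, 360 and 256 TPM after MCF-10A EVs and at 443, 455 and 216 TPM after MDA-MB-231 EVs. Both EV groups overlapped with PBS, only through PBS 1, the lowest of its group. The means were 502 ± 204 TPM (SD, n = 3) after PBS, 240 ± 128 after MCF-10A EVs and 372 ± 135 after MDA-MB-231 EVs.

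In MCF-10A EV against PBS the log2 change of Cyp1a2 was -1.14 ± 0.57 (95% interval -2.40 to 0.12), with a limma p of 0.0715 before adjustment and an adjusted limma p of 1. It moved with single libraries, to -0.63 without MCF-10A EV 1 and to -1.51 without either PBS 1 or MCF-10A EV 2. The other comparisons gave -0.42 ± 0.57 for MDA-MB-231 EV against PBS and 0.72 ± 0.57 for MDA-MB-231 EV over MCF-10A EV (limma adjusted p = 1 for both). The former ran from -0.79, with PBS 1 left out, through -0.15, with PBS 3 left out, to -0.07, with MDA-MB-231 EV 3 left out. The latter was 0.21 with MCF-10A EV 1 left out, 1.10 with MCF-10A EV 2 left out and 1.07 with MDA-MB-231 EV 3 left out. When limma weighted the libraries by their spread, Cyp1a2 was called in MCF-10A EV against PBS (-1.22, limma adjusted p = 0.0303) and Ahr was not (-0.92, 0.0540). That fit gave PBS 3, the library with the most Cyp1a2, a weight of 8.24 against at most 3.86 elsewhere, and it called 4.26% of all genes in that comparison.

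Cyp1a1, the enzyme that serves as the usual marker of AHR activation, was at 0.20, 0.47 and 0.32 TPM in PBS 1 to 3. It was at 0.14, 0.32 and 0.26 TPM after MCF-10A EVs and at 0.79, 0.10 and 0.30 TPM after MDA-MB-231 EVs. The highest and the lowest level both came from the MDA-MB-231 EV group. The exact permutation p was 0.9 in MDA-MB-231 EV against PBS, 0.8 between the EV groups and 0.5 in MCF-10A EV against PBS. No library reached 1 TPM of it.

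Cyp1b1, the CYP1 enzyme found mostly outside the hepatocyte, was at 0.32, 0.60 and 0.07 TPM in PBS 1 to 3. It was at 0.02, 0.20 and 0.33 TPM after MCF-10A EVs and at 0.18, 0.09 and 0.05 TPM after MDA-MB-231 EVs. The groups overlapped, and the exact permutation p was between 0.3 and 0.6. Of the summed TPM of the 3 CYP1 genes, Cyp1a2 made up between 99.77% and 99.96% in each library. Cyp1a2 exceeded its neighbour Cyp1a1 by 561 to 4550 times within a library.

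The limma test called none of the 4 members that could be tested, Ahr, Arnt, Tiparp and Cyp1a2, in any comparison at an adjusted p under 0.05. The share of all genes called was 0% in MDA-MB-231 EV against PBS, 0.218% between the EV groups and 0.194% for MCF-10A EV against PBS. These shares stand for 0, 28 and 25 genes. With the replicate number as a block the second count was 15, and the members were still not called. At an unadjusted p under 0.05 there were 0, 1 and 1 members, the 1 being Ahr each time, where 1.55%, 3.83% and 3.20% of all genes stood. The median log2 change of the 4 members was 0.25, 0.78 and -0.62 in that order, and that of all tested genes was 0.21, 0.17 and 0.07. The labels do not say that replicates came from separate mice, so these p-values measure only the spread between the samples.

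**Figure D3:**
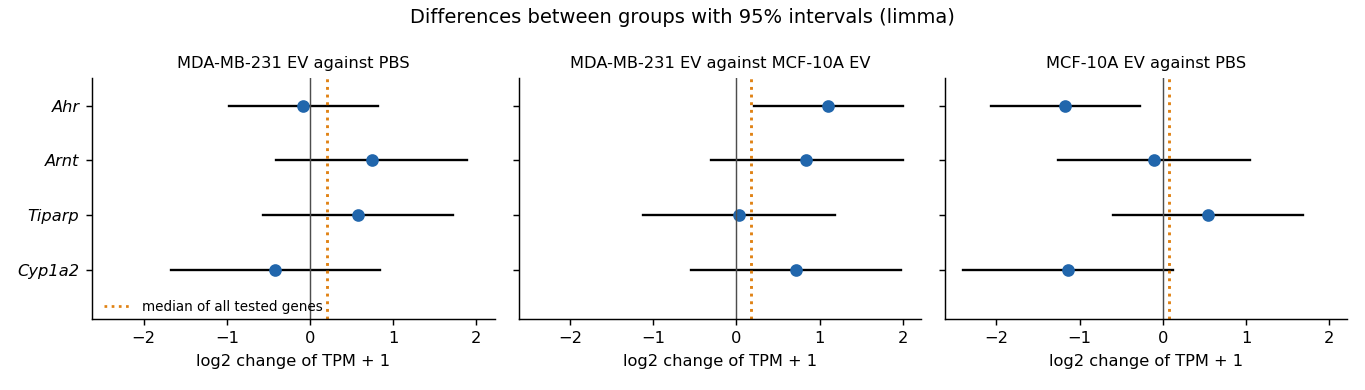
Log2 change of TPM + 1 (horizontal axis) for the 4 tested members in the 3 comparisons; points are limma estimates, bars are 95% intervals, and the dotted line is the median of all tested genes. The intervals of Ahr exclude 0 in both comparisons with MCF-10A EV, before any adjustment, and those of Arnt, Tiparp and Cyp1a2 include 0 in each comparison.

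A list of 19 other genes that AHR is known to induce or to need was also described; 15 of them had a mean of at least 1 TPM. None was called by limma in any comparison. Their log2 change in MDA-MB-231 EV against PBS was above 0 for 14 of 15, beside 69.7% of all tested genes, and their median was 0.66 beside 0.21. After quantile normalization, or with mitochondrial genes taken out, 12 of 15 were above 0, with medians of 0.42 and 0.55. The share and median of all tested genes were not taken in those fits, so 69.7% and 0.21 belong to the reported fit only.

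Wholly higher in MDA-MB-231 EV than in PBS were 2 of the 15, the quinone reductase gene Nqo1 (log2 change 0.78 ± 0.42) and Htatip2 (0.69 ± 0.38). Nqo1 was at 9.04, 5.44 and 6.22 TPM after MDA-MB-231 EVs and at 2.06, 4.07 and 4.92 TPM after PBS. Between the EV groups they were Htatip2 (0.36 ± 0.38) and the monooxygenase gene Fmo2 (0.96 ± 0.45); Nqo1 and Htatip2 were picked after their values were seen. The shares of all genes separated in that direction are the 5.23% and 4.73% given above. The glucuronosyltransferase gene Ugt1a9 gave 1.80 ± 0.75 in MDA-MB-231 EV against PBS, with 305, 162 and 38.3 TPM after MDA-MB-231 EVs against 16.8, 65.6 and 37.8 TPM after PBS. Ugt1a9, Ugt1a6a and Ugt1a6b share their last exons, so how the reads were divided among them is uncertain.

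Socs2, a feedback inhibitor of cytokine and growth hormone signals, gave 2.11 ± 0.81 in MDA-MB-231 EV over MCF-10A EV. The gene had its highest level in 1 library. It was at 176 TPM in MDA-MB-231 EV 3 and at 40.3 and 20.3 TPM in the other 2, against 26.4, 7.18 and 16.9 TPM after PBS (log2 change 1.76 ± 0.81, limma adjusted p = 1). In MCF-10A EV against PBS the list had 11 of 15 genes above 0, beside 56.8% of all genes, with a median of 0.17 beside 0.07 and no gene separated. Against MCF-10A EV, the MDA-MB-231 EV group had 11 of 15 above 0, beside 65% of all genes, and a median of 0.44 beside 0.17. Over fits that left out 1 library each, the median of the list ran from 0.35 to 0.93 in MDA-MB-231 EV against PBS, with the lowest value without MDA-MB-231 EV 1. Between the EV groups its lowest value was 0.22, again without MDA-MB-231 EV 1, and its highest 0.89, when MDA-MB-231 EV 3 was left out. In MCF-10A EV against PBS it ran from -0.05, without PBS 1, to 0.46, without PBS 2. With weighted libraries the last was -0.15, with 5 of 15 genes above 0. Aldh3a1, a strongly inducible target in other tissues, was at no more than 0.13 TPM in any library, and Gsta1, Cyp2s1 and Scin also averaged less than 1 TPM.

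**Figure D4:**
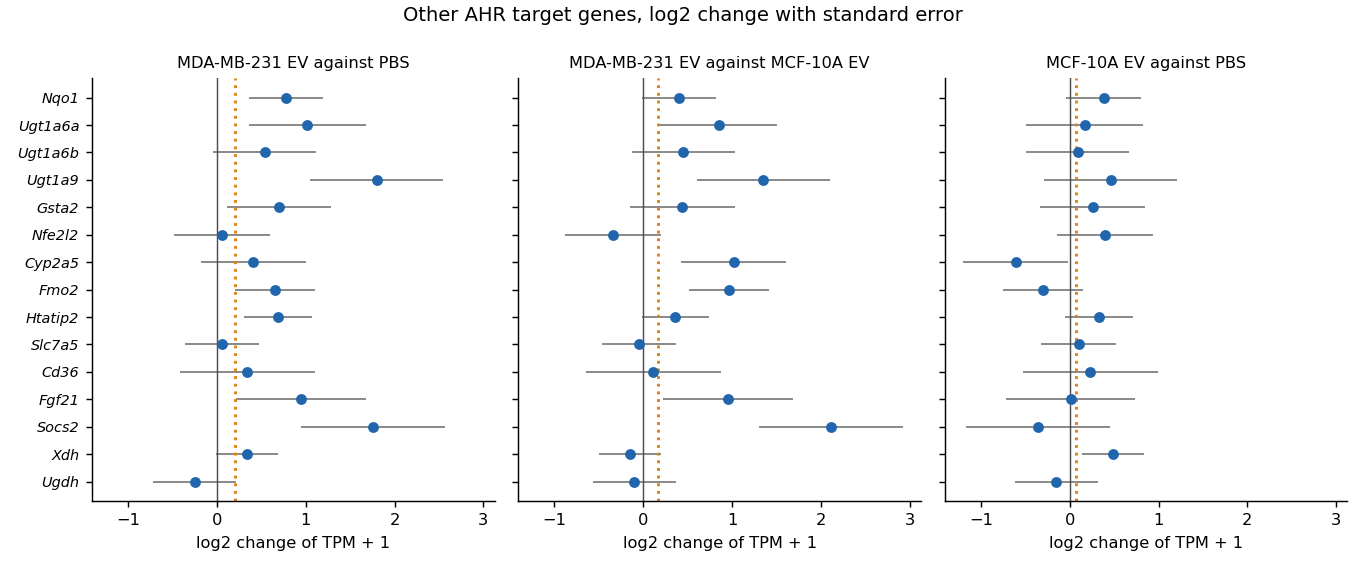
Log2 change of TPM + 1 (horizontal axis) of 15 other AHR target genes in the 3 comparisons, with the standard error as bars and the median of all tested genes as a dotted line. 14 of 15 points lie right of 0 in MDA-MB-231 EV against PBS, and the errors are wide for Ugt1a9 and Socs2.

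With weighted libraries 4.26% of all genes were called in MCF-10A EV against PBS, and 2 of the 12 chaperones and coactivators of AHR. These 12 genes held no other call. Their median log2 change was 0.11 in MDA-MB-231 EV against PBS, 0.26 in MDA-MB-231 EV over MCF-10A EV and 0 for MCF-10A EV over PBS. Ncoa1, a coactivator of nuclear receptors, was separated like Ahr, at 2.59, 1.14 and 1.96 TPM after MCF-10A EVs, 14.2, 4.35 and 4.60 TPM after PBS and 4.95, 3.39 and 16.3 TPM after MDA-MB-231 EVs. Its log2 change was -1.44 ± 0.59 in MCF-10A EV against PBS and 1.44 ± 0.59 in MDA-MB-231 EV over MCF-10A EV (limma adjusted p = 1 for both). Ncoa1 was the 1 gene of the 12 separated in each of these directions, beside 4.74% and 4.73% of all tested genes. Hsp90aa1, the inducible HSP90 gene, was at 151 TPM in MCF-10A EV 3 and gave -1.42 ± 0.54 between the EV groups. The kinase gene Src gave 0.66 ± 0.44 there.

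Of 10 relatives of AHR and ARNT in the bHLH-PAS family, 3 reached the 1 TPM mean. Epas1, which encodes HIF-2 alpha, gave 0.89 ± 0.63 in MDA-MB-231 EV against PBS, with 61.9 TPM in MDA-MB-231 EV 1 and 19.4 and 15.6 TPM in the other 2. Hif1a gave 0.50 ± 0.47 between the EV groups and the clock gene Clock 0.38 ± 0.68 in MCF-10A EV against PBS. Each of these genes is given for the comparison with its smallest unadjusted limma p. Elsewhere Hif1a gave 0.08 in MDA-MB-231 EV against PBS and -0.42 in MCF-10A EV against PBS. Arnt2, a close relative of Arnt, was at no more than 0.16 TPM in any library. The medians of the 3 were 0.10, 0.50 and 0.30 in the order of comparisons used above, and none was called.

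Targets of the hypoxia factors, which also need ARNT, had 12 tested genes, no call and medians of 0.20, 0.16 and 0.17. Pdk1, a kinase that holds back pyruvate oxidation, was at 21.6, 7.70 and 15.8 TPM after MDA-MB-231 EVs and at 7.09, 5.5 and 6.17 TPM after PBS, with no overlap (1.04 ± 0.43, limma adjusted p = 1). Pdk1 was the 1 of 12 tested genes wholly higher in MDA-MB-231 EV than in PBS, beside 5.23% of all tested genes. Egln3 gave 0.60 ± 0.45 in the same comparison and Kdm3a 0.90 ± 0.65 between the EV groups. Kdm3a gave 0.02 in MDA-MB-231 EV against PBS and -0.88 in MCF-10A EV against PBS. Enzymes of the kynurenine path of tryptophan, before and after kynurenine, had 11 tested genes, no call and medians of 0.31, 0.41 and -0.16. The path yields ligands of AHR, but not every listed enzyme makes one. Kyat3, a kynurenine aminotransferase, gave 1.15 ± 0.54 in MDA-MB-231 EV over MCF-10A EV, where its groups did not overlap. It was the 1 of 11 tested genes separated there, beside 4.73% of all tested genes. In MDA-MB-231 EV against PBS it gave 1.11 ± 0.54, with overlap. Aadat gave 0.75 ± 0.54 after MDA-MB-231 EVs and 0.73 ± 0.54 after MCF-10A EVs, both against PBS, and 0.02 ± 0.54 between the EV groups. Qprt gave 0.88 ± 0.71, 0.51 ± 0.71 and 0.37 ± 0.71 in the same order. Ido1, an inducible enzyme of the first step of the path, was listed at 0 in all but 1 library, at 0.04 TPM. Of the same list, Tdo2 was between 58.7 and 570 TPM and Ido2 between 9.18 and 40.9 TPM over the libraries.

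Ahr is made by several liver cell types, so markers of each were set beside it. In bulk tissue, fewer cells of a type and less RNA per cell cannot be told apart. Of the stellate cell markers, 11 of 11 tested had a log2 change below 0 in MCF-10A EV against PBS (median -0.42). In that comparison 56.8% of all tested genes lay above 0. In MDA-MB-231 EV over MCF-10A EV 11 of 11 lay above 0 (median 0.78), beside 65% of all tested genes. Both comparisons use the same MCF-10A EV libraries, and neither called a stellate cell marker. The 12 stellate cell genes summed to between 186 and 355 TPM after MCF-10A EVs, 453 and 737 after PBS and 291 and 774 after MDA-MB-231 EVs. None was at 0 throughout. Rgs5, a pericyte regulator of G proteins, had the smallest p of the list, at 6.59, 9.84 and 6.67 TPM after MCF-10A EVs against 27.8, 36.6 and 26.4 TPM after PBS (log2 change -1.85 ± 0.36, limma adjusted p = 0.112). With weighted libraries 2 of the 11 were called in that comparison, beside 4.26% of all genes. The part of these cells in the Ahr values was not tested.

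Of all tested genes, 56.8% lay above 0 in MCF-10A EV against PBS and 65% between the EV groups. Sinusoidal endothelial markers had 10 of 12 below 0 in the first (median -0.40) and 11 of 12 above 0 in the second (median 0.63). They summed to between 189 and 229 TPM after MCF-10A EVs, 192 and 374 after PBS and 199 and 415 after MDA-MB-231 EVs. Hepatocyte markers had medians of 0.17, 0.02 and 0.04 in the 3 comparisons and pericentral markers 0.02, 0.42 and -0.25. Pericentral markers are those of the hepatocytes that make Cyp1a2, and 8 of 12 were below 0 in MCF-10A EV against PBS. With 1 library left out the pericentral medians ran from -0.39 to 0.38, from 0.12 to 0.57 and from -0.68 to 0.06, and the hepatocyte medians took either sign in each comparison.

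Neutrophil markers had medians of 0.54, -2.38 and 2.68, and the last 2 were carried by MCF-10A EV 1. With that library left out they were 0.12 and 0.37, over the 7 of 10 markers that still reached the 1 TPM mean. The 10 markers summed to between 30.2 and 5450 TPM after MCF-10A EVs, 21.5 and 83.4 TPM after PBS and 31.7 and 229 TPM after MDA-MB-231 EVs, so the groups overlapped. Kupffer cell markers had medians of 0.78, 0.34 and 0.49. The first ran from 0.47 to 1.08 with 1 library left out, while the second (-0.29 to 0.94) and the last (-0.16 to 1.01) took either sign, the -0.16 with MCF-10A EV 1 left out. Erythroid markers had medians of 0.32 (-0.17 to 1.06), -0.30 (-1.25 to 0.78) and 0.98 (-0.37 to 1.74), with these ranges over the same fits. Cholangiocyte markers had medians of 0.03 (-0.19 to 0.03), 0.04 (0.01 to 0.22) and -0.19 (-0.42 to 0.48). Pancreas and fat markers had medians of -0.71 (-1.26 to -0.07), -0.04 (-0.15 to 0.12) and -0.74 (-1.29 to 0.18). None of these markers was called, and their part in the member values was not tested.

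Across the 9 libraries, the genes whose log2(TPM + 1) went most closely with each tested member were listed as a description, out of 11261 named genes. For Ahr they were Bach1, a repressor of heme and antioxidant genes (Pearson r = 0.970), the cyclin gene Ccne2 (0.937) and the kinase gene Aak1 (0.928). Bach1 was at 4.58, 3.01 and 3.59 TPM after MCF-10A EVs, 15.5, 10.7 and 7.83 TPM after PBS and 16.8, 6.41 and 13.0 TPM after MDA-MB-231 EVs. It thus shared with Ahr the low MCF-10A EV group and the low second library of the MDA-MB-231 EV group. For Cyp1a2 they were the organic anion transporter gene Slco1a1 (0.904), Cyp2c40 (0.901) and the carbonic anhydrase gene Car3 (0.897).

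The Cyp1a2 group was marked by 1 library: in MCF-10A EV 1 Slco1a1 was at 13.3 TPM against 25.7 or more elsewhere, Cyp2c40 at 18.2 against 67.5 or more and Car3 at 15.0 against 44.9 or more. In each of the 3 genes the next lowest value came from MDA-MB-231 EV 3. For Arnt the closest genes were Polr3gl (0.985), Iars2 (0.982) and Zfp110 (0.978), and for Tiparp Ppig (0.978), Dipk1a (0.964) and Map4k4 (0.962). No member was among the closest genes of another. For Ahr, Arnt stood at rank 1035 (r = 0.59), Cyp1a2 at rank 4335 (r = 0.31) and Tiparp at rank 6830 (r = 0.11). Tiparp and Arnt went together at 0.74 and Tiparp and Cyp1a2 in opposite directions at -0.68. These correlations over 9 libraries share group, library and scaling, and have no p.

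**Figure D5:**
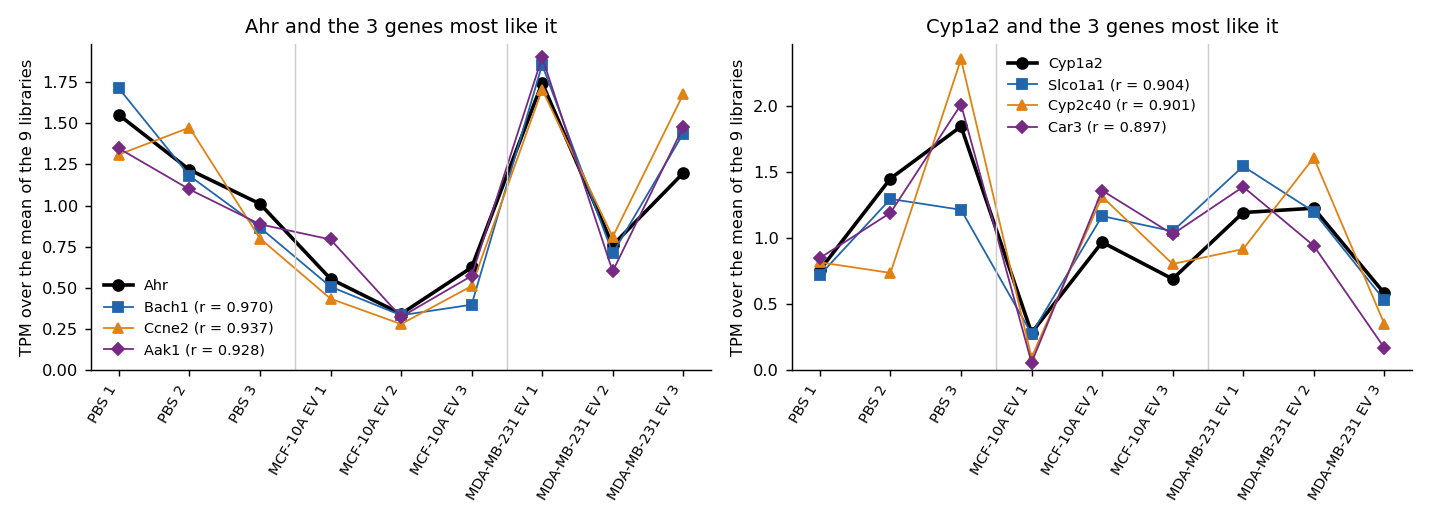
TPM divided by the mean of the 9 libraries (vertical axis) for Ahr and Cyp1a2, each with the 3 genes of highest Pearson r, in the 9 libraries in label order; lines only join the points of a gene. Ahr and Bach1 are lowest in the MCF-10A EV libraries, and Cyp1a2, Slco1a1, Cyp2c40 and Car3 are lowest in MCF-10A EV 1.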

How the data were processed

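The deposited table gives TPM per gene and library, made by the authors; HISAT2, StringTie and RSEM are named with GRCm39 in the submitters' processing notes, without versions or order. Per the labels' protocols, a TruSeq RNA kit was used. The TPM values were taken as deposited, without the 6059 loci assembled from the reads, which are at 0 in the MCF-10A EV group. Library depth is unknown. The 12860 genes averaging 1 TPM or more went, on the scale of log2(TPM + 1), into 1 limma fit (3.58.1, R 4.3.3) of the 9 libraries by group, with a trended prior variance, two-sided tests and Benjamini-Hochberg adjustment per comparison over all tested genes. The script was tested on simulated data with a capped spread and larger changes than those of the members. That test does not show how often changes of the members' size would be called. Members averaging less got an exact two-sided permutation test. The rule for named genes took the members and up to 3 genes of each list with the smallest p. It also took the 3 genes most like each tested member. A list gene whose log2 change is given for only 1 comparison is given for the one where its unadjusted limma p was smallest. Of the cell type lists, few are printed. Untested genes and Nqo1, Htatip2, Tdo2 and Ido2 were added after their values were seen. A listed AHR target is not reported here. Members and lists were chosen with earlier results of these data known, so list counts are no independent support. Replicate numbers were checked for pairing by the correlation of deviations from group means: it was 0.34, 0.11 and 0.44 for MCF-10A EV with MDA-MB-231 EV, -0.21, -0.09 and -0.16 for PBS with MCF-10A EV and -0.28, 0.50 and -0.39 for PBS with MDA-MB-231 EV. With 3 libraries a group these values cannot settle pairing, since PBS 1 with MDA-MB-231 EV 3, of unlike number, gave 0.62. Whether the numbers pair libraries is therefore not known. The reported fit has no block in any comparison; the replicate block is an alternative. Alternatives changed the pseudocount, filter, scaling, library weights, replicate block and libraries kept. Promoter sequences are from RefSeq, GRCm38.p6.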

Additional observations from a re-analysis of the deposited data

How the results depend on the processing

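The limits are 3 libraries a group, TPM without depth, and single libraries that decide several values. The MCF-10A EV group, in which Ahr was lowest, also lists every assembled locus at 0 and sums to between 934986 and 979351 TPM. Over Ensembl genes alone these sums overlapped with those of both other groups. A separate quantification of the MCF-10A EV group, which the labels do not settle, cannot be told apart from its EV treatment. No alternative brought a call for a member, except that weighting the libraries called 1 member, Cyp1a2, in MCF-10A EV against PBS. Over all alternatives the log2 change of Ahr ran from 0.76 to 1.38 between the EV groups and from -1.32 to -0.81 in MCF-10A EV against PBS, and the limma adjusted p from 0.42 to 1 and from 0.054 to 1.

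Ahr in MDA-MB-231 EV against PBS turned to 0.16 with weights and 0.06 without PBS 1 and MDA-MB-231 EV 3, and ran from -0.35 to 0.21 with 1 library left out. Tiparp between the EV groups turned to -0.12 after quantile normalization and -0.24 without those 2 libraries, and ran from -0.24 to 0.50. Arnt in MCF-10A EV against PBS ran from -0.45 to 0.11. The cause was not tested.

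Genes called by limma in MDA-MB-231 EV against PBS, 0 in the reported fit with 199 at an unadjusted p under 0.05, ran from 0 to 24 with 1 library left out (24 without PBS 1, 5 without MDA-MB-231 EV 3) and were 28 without both. Between the EV groups, 28 became 11 with a pseudocount of 5, 11 with no filter, 17 at a mean of 5 TPM, 46 with weights, 15 with the replicate block and 11 from those groups alone, and ran from 13 (without MCF-10A EV 3) to 31 with 1 library left out; without PBS 1 and MDA-MB-231 EV 3 there were 36. In MCF-10A EV against PBS, 25 became 40 with a pseudocount of 0.1, 11 with one of 5, 12 with no filter, 548 with weights, 48 from those groups alone and 85 without PBS 1 and MDA-MB-231 EV 3, and ran from 14 (without MCF-10A EV 3) to 59 (without MDA-MB-231 EV 3). In the other comparisons the replicate block gave 0 calls in MDA-MB-231 EV against PBS and 20 in MCF-10A EV against PBS. It changed no call of a member.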
